A study of Arabidopsis thaliana with 12 samples.

Results

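Transcript levels on 12 arrays of whole Arabidopsis thaliana seedlings were examined for 4 genes of the AP2/ERF family of transcription factors: AT5G61590, also called DEWAX, AT2G44940, AT1G22810 and ORA47 (AT1G74930). The 4 genes were chosen by the measured difference between chitooctaose and water in these same arrays, with AT5G61590 and AT2G44940 lower, AT1G22810 higher and ORA47 little changed. Each is read by 1 probe set that is assigned to that gene alone, and together they are 4 of 13286 genes measured in this way. The responses to chitooctaose are therefore given as a description without a test, and tests are given for the differences between genotypes, which did not enter the choice.

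The groups were an erf5/6 double mutant of the ethylene response factor genes ERF5 and ERF6 treated with chitooctaose, the same mutant treated with water, wild type (WT) treated with chitooctaose, and WT treated with water. All seedlings were 14 days old and had grown in constant light, and each treatment lasted 30 min, with chitooctaose at 1 µM and water as its control. Each group had 3 arrays, which the labels name as biological replicates. The labels give no alleles for the mutant, and no ecotype or number of pooled seedlings. No probe set assigned to ERF5 or ERF6 alone was in the table used here, so the genotype was not checked against these transcripts.

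AP2/ERF factors share a DNA-binding domain and form one of the larger families of plant transcription factors. ERF-type members are best known for binding GCC-box promoter elements of defence genes, and DREB-type members for binding dehydration-responsive elements. Chitooctaose is a soluble fragment of fungal chitin that seedlings perceive at the cell surface, and genes of several transcription factor families are among the early targets of that signal. DEWAX represses genes of cuticular wax synthesis and accumulates in the dark. ORA47 activates genes of jasmonate synthesis and is itself induced by wounding and jasmonate. AT2G44940 and AT1G22810 belong, like ORA47, to the DREB-type branch. AT5G61590 is usually placed in group IX, the branch of ERF5 and ERF6, so the 4 genes do not share 1 branch.

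Values are deposited probe set intensities after quantile normalization, and an intensity below 16 was treated as a floor with no order below it. Before normalization the array medians ran from 76.96 to 83.25, and about 24.1% of normalized values lay below the floor on each array. Principal component 1 carried 64.9% of the variance and separated treatments. Array 2 of chitooctaose-treated WT and array 1 of water-treated WT stood apart on component 2, at -0.67 and -0.49, against -0.14 to 0.29 for the others. The tissue markers with a probe set of their own were bright in every group. The summed intensity of 2 of 5 green tissue markers, LHCB4.1 and RCA, was 11657 to 11823 in chitooctaose-treated mutant, 11731 to 11767 in water-treated mutant, 11351 to 11676 in chitooctaose-treated WT and 11383 to 11566 in water-treated WT. The root marker PYK10, 1 of 3 on its list, had 4260 to 4265, 4007 to 4287, 3668 to 4095 and 3545 to 4055 in the same order of groups, and none of 3 epidermis markers was measured. In whole seedlings, fewer cells of a type and less RNA per cell cannot be told apart.

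The transcript of AT5G61590 was less abundant after chitooctaose in both genotypes. In the mutant its intensities were 227, 216 and 249.6 with chitooctaose, against 604, 663 and 879.9 with water. In WT they were 259, 263 and 265 with chitooctaose, against 651, 719 and 749 with water. No chitooctaose array of either genotype reached the lowest water array, a separation that 18.2% of all probe sets showed in this direction in the mutant and 17.4% in WT. The log2 difference was -1.62 ± 0.13 in the mutant and -1.43 ± 0.13 in WT (SE, n = 3 arrays per group), or 3.06-fold and 2.69-fold lower. Here and below, the SE of a log2 difference comes from a spread fitted over all groups, so it is the same for both genotypes. The log2 SD of AT5G61590 itself was 0.28 in water-treated mutant and 0.02 in chitooctaose-treated WT.

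AT2G44940 followed the same direction at a dimmer signal. In the mutant its intensities were 34.6, 25.2 and 34.8 with chitooctaose, against 79.5, 77.9 and 75.6 with water. In WT they were 25.3, 29.7 and 28.8 with chitooctaose, against 55.9, 65.0 and 53.3 with water. The treatments did not overlap in either genotype. The log2 difference was -1.32 ± 0.13 in the mutant and -1.05 ± 0.13 in WT (SE, n = 3 arrays per group), or 2.49-fold and 2.07-fold lower. Its chitooctaose arrays came near the floor, and when 32 was added to every intensity instead of flooring the differences were -0.79 in the mutant and -0.59 in WT.

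AT1G22810 had the opposite pattern. Its intensities with chitooctaose were 118, 123 and 106 in the mutant, against values of 4.84 or lower on all 3 water arrays. In WT they were 112, 129.5 and 97.7 with chitooctaose, against values of 4.85 or lower with water. All 6 water arrays thus lay under the floor, so the size of the change is only bounded. The treatments did not overlap, as for 9.27% of all probe sets in this direction in the mutant and 9.55% in WT. Against the floor, AT1G22810 was at least 7.21-fold higher in the mutant and at least 7.03-fold higher in WT. RefSeq places this gene over part of its neighbour AT1G22800 and within a long non-coding RNA, AT1G05767. AT1G22800, read by its own probe set, had log2 differences of -0.04 ± 0.15 in the mutant and -0.50 ± 0.15 in WT (SE), neither called (limma adjusted p = 0.916 and 0.0621).

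ORA47 was expressed in every group and showed no separation by treatment. In the mutant its intensities were 58.2, 72.1 and 72.2 with chitooctaose, against 69.96, 58.2 and 64.3 with water. In WT they were 69.7, 84.2 and 84.7 with chitooctaose, against 81.9, 65.8 and 61.7 with water. The treatments overlapped in both genotypes. The log2 difference was 0.07 ± 0.13 in the mutant and 0.19 ± 0.13 in WT (SE, n = 3 arrays per group). The 95% interval ran from -0.23 to 0.37 in the mutant and from -0.10 to 0.49 in WT.

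**Figure D1:**
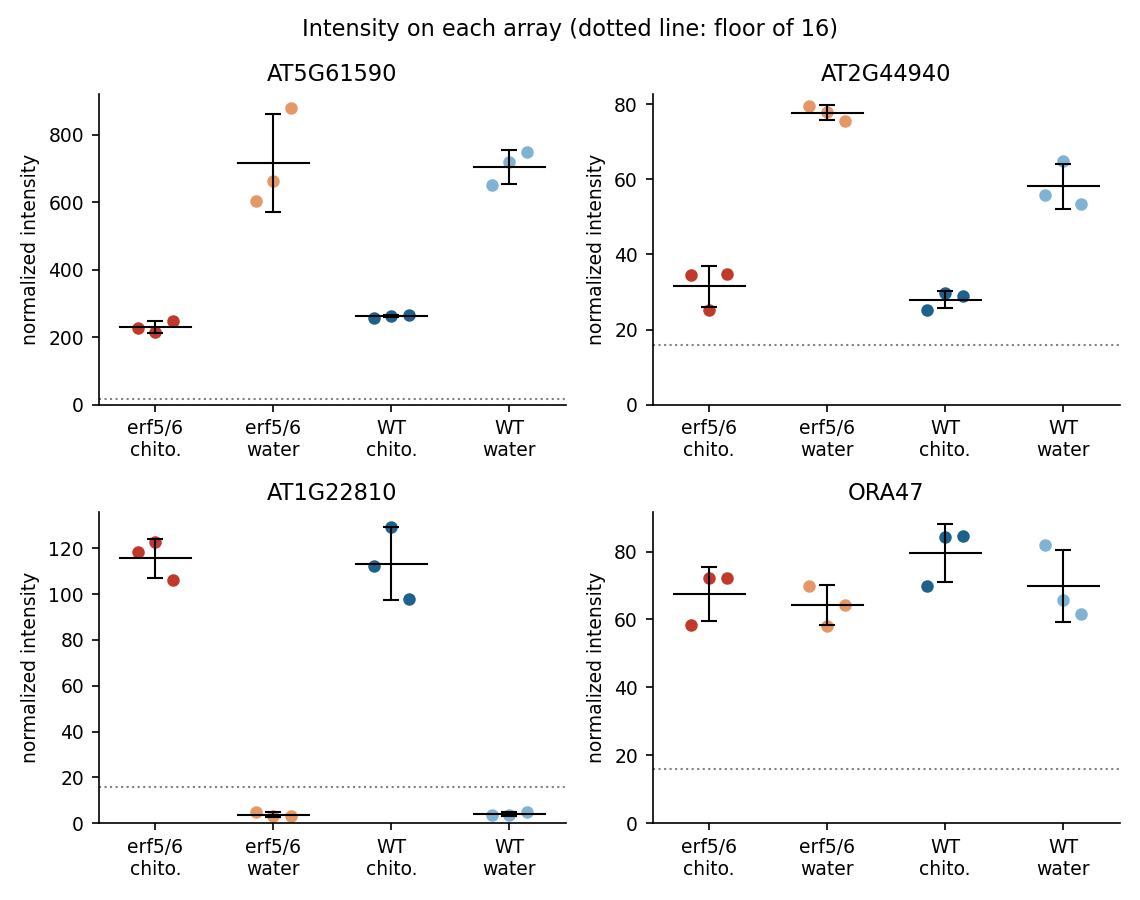
Normalized intensity (linear scale from 0) of the 4 genes on each array, by group, with the mean (line) and SD (bars) of 3 arrays per group and the floor of 16 dotted. AT5G61590 and AT2G44940 sit lower with chitooctaose than with water in both genotypes, all 6 water arrays of AT1G22810 sit under the floor, and the ORA47 arrays of all groups overlap between 58.2 and 84.7.

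Across the 4 groups, AT5G61590 was lowest at 231 ± 17.1 in chitooctaose-treated mutant and 262 ± 3.11 in chitooctaose-treated WT, and highest at 716 ± 145 in water-treated mutant and 706 ± 50.2 in water-treated WT (SD, n = 3). The mutant and WT arrays in water overlapped, whereas those after chitooctaose did not. AT2G44940 averaged 31.5 ± 5.47 in chitooctaose-treated mutant and 27.96 ± 2.34 in chitooctaose-treated WT, which overlapped, and 77.6 ± 1.99 in water-treated mutant and 58.1 ± 6.11 in water-treated WT, which did not (SD, n = 3). AT1G22810 averaged 116 ± 8.59 in chitooctaose-treated mutant and 113 ± 15.9 in chitooctaose-treated WT, with overlapping arrays. ORA47 averaged 67.5 ± 8.03 in chitooctaose-treated mutant, 64.2 ± 5.88 in water-treated mutant, 79.5 ± 8.50 in chitooctaose-treated WT and 69.8 ± 10.7 in water-treated WT, and no neighbouring levels were separated.

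The genotype comparison asked whether loss of ERF5 and ERF6 goes with another level of these 4 factors. None of the 4 was called in water or after chitooctaose, or as an average of both treatments (limma with Benjamini-Hochberg adjustment over all 18680 probe sets, adjusted p under 0.05). Calls were rare over the whole table, at 0.0321% of probe sets in water, 0.0214% after chitooctaose and 0.0375% for the average.

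In water AT2G44940 was nearest to a difference, with 79.5, 77.9 and 75.6 in the mutant, against 55.9, 65.0 and 53.3 in WT. All 3 mutant arrays were brighter than all 3 WT arrays, as was the case for 5.42% of the probe sets tested. The log2 difference was 0.42 ± 0.13 (SE, n = 3 arrays per group, 95% interval 0.14 to 0.71, limma unadjusted p = 0.00738, adjusted p = 0.703). After chitooctaose it was 0.16 ± 0.13 with overlapping arrays (adjusted p = 0.871 from limma), and averaged over both treatments 0.29 ± 0.09 (adjusted p = 0.453 from limma). The transcript was thus brighter in the mutant in water on every array, by an amount that did not pass the correction.

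AT5G61590 showed the reverse arrangement. Its genotype difference in water was 0.00 ± 0.13, with an interval from -0.27 to 0.28 and adjusted p = 1 from limma. After chitooctaose all 3 mutant arrays lay below all 3 WT arrays, as they did for 5.97% of probe sets, and the log2 difference was -0.18 ± 0.13 (95% interval -0.46 to 0.09, limma adjusted p = 0.842). ORA47 was at -0.12 ± 0.13 in water (interval -0.41 to 0.18, limma adjusted p = 0.974) and at -0.24 ± 0.13 after chitooctaose (interval -0.53 to 0.06, limma adjusted p = 0.801). AT1G22810 was at the floor in water in both genotypes, so no difference is given there, and after chitooctaose it was at 0.04 ± 0.10 (interval -0.18 to 0.25, limma adjusted p = 0.983). Its floored water arrays entered the fit with an SD of 0, against log2 SDs of 0.11 in chitooctaose-treated mutant and 0.20 in chitooctaose-treated WT. The SE and interval of AT1G22810 are therefore too narrow.

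The responses of both genotypes were also set against each other. The response of the mutant minus that of WT, on the log2 scale, was -0.19 ± 0.18 for AT5G61590, -0.26 ± 0.18 for AT2G44940 and -0.12 ± 0.19 for ORA47 (SE, n = 3 arrays per group). For AT1G22810 it was 0.04 ± 0.14, an SE made too narrow by the floored water arrays. Its value equals its genotype difference after chitooctaose because its water arrays were all at the floor. These values are a description, since the members were chosen with both responses known. Over the whole table limma called 0 of 18680 probe sets for this difference, with 859 at an unadjusted p under 0.05. The median 95% interval of such a difference reached 0.39 to each side.

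The values were computed again without both WT arrays that stood apart, as a check added after the data were seen. Without them the WT response was -1.49 for AT5G61590, -1.12 for AT2G44940, 2.71 for AT1G22810 and 0.27 for ORA47 on the log2 scale. The genotype difference of AT2G44940 in water was then 0.40.

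**Figure D2:**
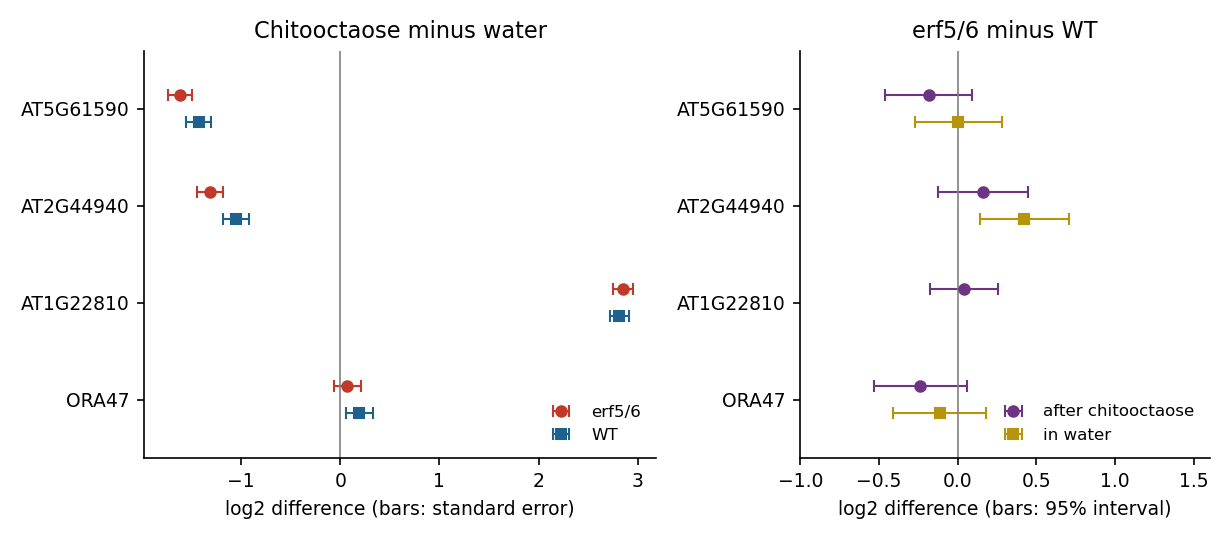
Log2 differences of the 4 genes for chitooctaose minus water in each genotype (left, bars are standard errors) and for erf5/6 minus WT in each treatment (right, bars are 95% intervals), from limma over 12 arrays. The responses of both genotypes lie close together for each gene, and of the genotype intervals shown only that of AT2G44940 in water, 0.14 to 0.71, lies off 0. AT1G22810 in water, at the floor in both genotypes, is left out, and its responses are lower bounds. The bars of AT1G22810 are too narrow, since its floored water arrays add no spread to the fit.

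To place the 4 genes in their family, 135 other AP2/ERF loci were listed, of which 40 had a probe set of their own and 34 rose above the floor on at least 1 array. In the mutant 4 of the 34 were called higher and 2 lower with chitooctaose, against 5.95% and 2.66% of all probe sets. In WT 5 were called higher and 2 lower, against 6.06% and 4.08% of all probe sets. Called shares were 17.6% of the 34 in the mutant and 20.6% in WT, against 8.61% and 10.1% of all probe sets. The median log2 difference of the 34 was -0.07 in both genotypes, beside medians of -0.08 and -0.07 over all probe sets in the mutant and in WT. No p-value is given for the list, and 3 of the 34 (AT1G33760, AT2G22200 and AT1G36060) were tested only because they rose above the floor under 1 of the treatments. Of these, AT1G33760 is among the genes counted as higher and AT2G22200 among those counted as lower, in both genotypes. The called shares of the 34 thus rest in part on calls that are no test.

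Among the other family members called higher was AT2G33710, with a mean of 159 ± 3.92 with chitooctaose against 25.1 ± 7.92 with water in the mutant, and 133 ± 20.3 against 21.4 ± 3.79 in WT (SD, n = 3). It rose by 2.72 ± 0.21 and 2.63 ± 0.21 on the log2 scale (SE, limma adjusted p = 3.97e-06 and 5.35e-06). AT1G64380 rose by 1.95 ± 0.27 in the mutant and 2.08 ± 0.27 in WT (limma adjusted p = 0.00059 and 0.000357). AT2G33710 belongs to group X, an ERF-type branch, and AT1G64380 to group I, a DREB-type branch.

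AT1G33760 and AT1G44830 were also higher with chitooctaose, and AT1G44830 comes from the branch of AT1G22810 and ORA47, group II. AT1G33760 resembled AT1G22810 in form: it lay below the floor on all 6 water arrays and was at least 3.40-fold higher with chitooctaose in the mutant and at least 3.33-fold higher in WT. It entered the fit only through its chitooctaose arrays, so no p-value is given for it. AT1G44830 was above the floor in every group and rose by 0.91 ± 0.21 in the mutant and 1.16 ± 0.21 in WT (limma adjusted p = 0.0174 and 0.00369). The mutant call was lost without array 2 or array 3 of chitooctaose-treated mutant, with only the arrays compared or with floor-level probe sets kept, at an adjusted p of up to 0.117. AT1G75490, of group IV, had 0.40 ± 0.16 in the mutant (limma adjusted p = 0.171) and 0.55 ± 0.16 in WT (limma adjusted p = 0.0491). The WT call held in 6 of 22 alternative settings. The response of the mutant minus that of WT was -0.15 ± 0.22 for this gene (SE). AT1G77640 and AT4G31060, of group II like AT1G44830, were not called in either genotype.

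A further 2 family members were called lower. AT2G22200 averaged 36.4 ± 4.89 with water in the mutant and 34.8 ± 3.70 in WT (SD, n = 3), and was below the floor on all 6 chitooctaose arrays. It was at least 2.26-fold lower in the mutant and at least 2.17-fold lower in WT. It entered the fit only through its water arrays, so no p-value is given for it, and with a floor of 32, close to its water level, neither difference was called. The gene listed as tny (TINY), a DREB-type factor known for dwarf growth when overexpressed, belongs to group III like AT2G44940. It had 70.6, 69.2 and 70.2 with chitooctaose in the mutant, against 139.6, 147 and 144 with water, and fell by 1.04 on the log2 scale (SE 0.20, limma adjusted p = 0.00589). In WT it had 53.7, 79.5 and 68.7 with chitooctaose, against 78.6, 127 and 143 with water, and the difference of -0.76 ± 0.20 (limma adjusted p = 0.0342) was called in 16 of 23 alternative settings. Leaving out array 1 of chitooctaose-treated mutant, array 1 or 3 of chitooctaose-treated WT, or array 2 or 3 of water-treated WT ended the call, as did fitting only the arrays compared or keeping floor-level probe sets. Over all settings the adjusted p reached 0.188 (limma). The treatments overlapped there, through the dim array 1 of water-treated WT.

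The other group IX genes measured were not called. AT5G07580, of group IX, was bright in every group, at 395 ± 42.8 with chitooctaose against 407 ± 32.8 with water in the mutant and 391 ± 59.2 against 384 ± 17.1 in WT (SD, n = 3). Its log2 differences were -0.05 ± 0.12 and 0.02 ± 0.12 (SE, limma adjusted p = 0.876 and 0.971). The other group IX gene above the floor, AT4G18450, stayed near it, with -0.15 and 0.06. The 27 family genes not called in either genotype, AT5G07580 and AT4G18450 among them, lay between -0.44 and 0.37 in the mutant and between -0.59 and 0.49 in WT. None of the 34 was called between genotypes in either treatment, with 1 at an unadjusted p under 0.05 in water and 1 after chitooctaose, against 1130 and 1207 of 18680 probe sets.

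**Figure D3:**
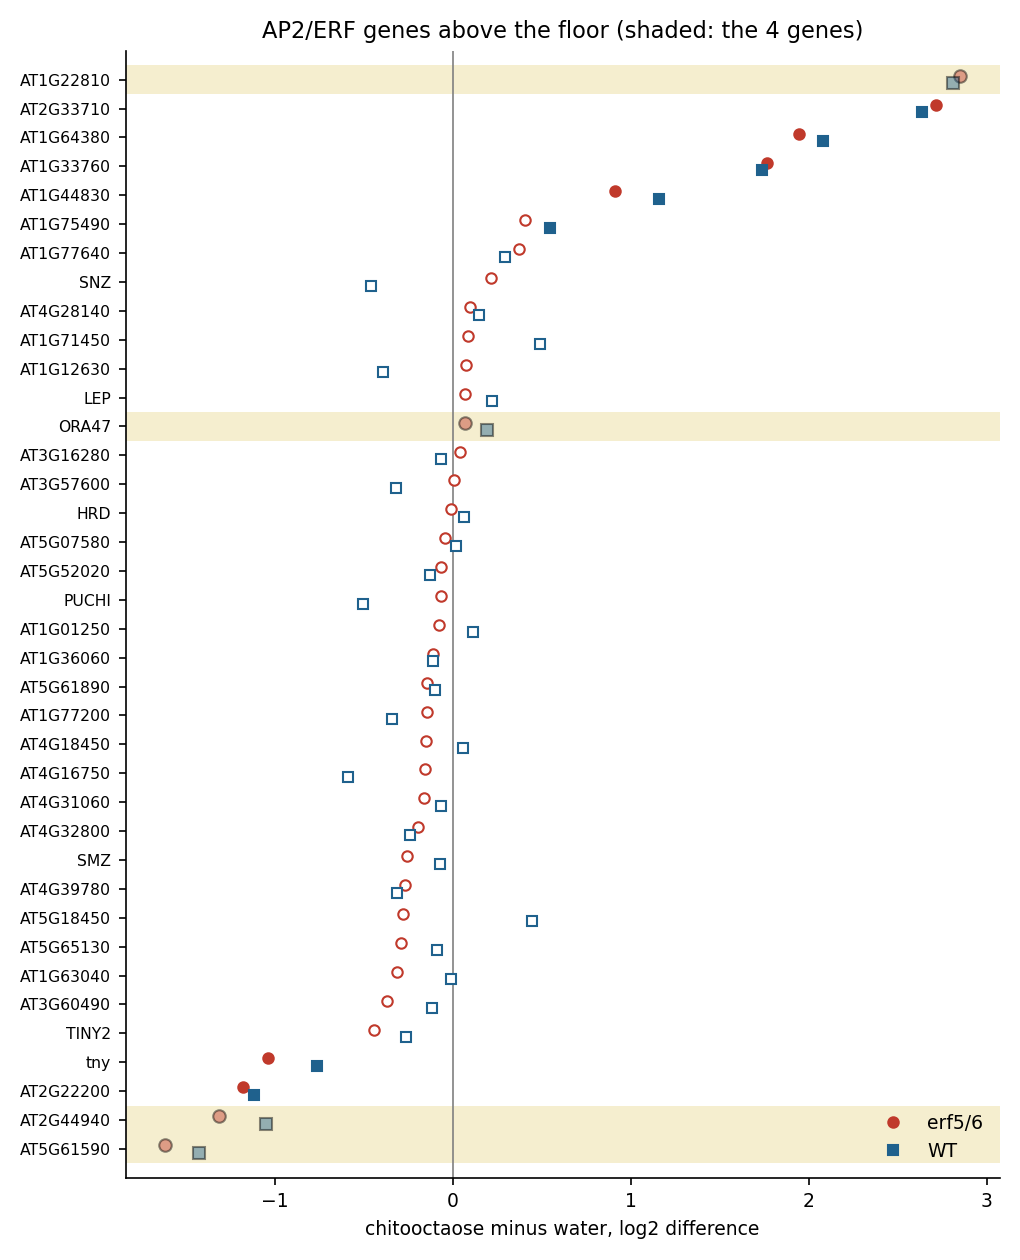
Log2 difference of chitooctaose minus water for 38 AP2/ERF genes above the floor, in erf5/6 (circles) and WT (squares), ordered by the fitted value in the mutant, which is only a bound for genes at the floor under 1 treatment. Filled marks were called by limma at an adjusted p under 0.05 and open marks were not. AT1G33760 and AT2G22200 are filled but entered the fit only through the treatment where they were high, so their marks are no test. The 4 genes (shaded, pale marks) carry no test either. AT5G61590 and AT2G44940 lie below -1 and AT1G22810 above 2 in both genotypes, with ORA47 near 0.

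The pathways known downstream of DEWAX and ORA47 were measured only thinly. Of 19 wax synthesis genes listed 2 had a probe set of their own: WSD1, a wax ester synthase gene, was below the floor on all 12 arrays, and ACLA-2, a subunit of ATP citrate lyase, had -0.05 in the mutant and -0.01 in WT, neither called (limma adjusted p = 0.809 and 0.976). Of 14 jasmonate synthesis genes 1 was measured. OPCL1, which activates a jasmonate precursor for its final shortening, averaged 435 ± 17.6 with chitooctaose against 133 ± 26.4 with water in the mutant and 395 ± 24.1 against 126 ± 24.1 in WT (SD, n = 3), and rose by 1.73 and 1.66 on the log2 scale (limma adjusted p = 1.98e-05 and 2.97e-05). ORA47 had 0.07 and 0.19 in the same arrays.

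The likeness of other genes to each of the 4 was described with Pearson's r over all 12 arrays, among 1548 single-gene probe sets (1549 for ORA47) above the floor on at least 6 arrays and with a range of at least 1 on the log2 scale, which admits genes at the floor in a whole treatment, such as AT2G22200. The arrays share the treatment groups, so genes that respond to chitooctaose resemble each other in this measure. AT5G44680 (r = 0.977), AT2G22200 (0.967), the protein kinase gene WAG2 (0.966), AT4G28240 (0.966) and AT1G74940 (0.957) were most like AT5G61590. The family member AT2G22200 was thus among its 5 closest. AT4G16447 (0.979), AT1G26920 (0.957), AT3G27880 (0.953), AT5G61570 (0.945) and AT5G44680 (0.945) were most like AT2G44940, so AT5G44680 was on both lists. AT5G61590 and AT2G44940 had r = 0.923 with each other, and r = -0.983 and -0.943 with AT1G22810. These genes were chosen by their response to chitooctaose in the same arrays, so these values largely restate that choice. AT1G22810 was matched to 0.998 or above by AT5G37490, AT1G43000, AT1G36640, AT1G07160 and AT3G48650. Its water arrays were all set to the floor, so any gene steady in water and much higher with chitooctaose gets a high r with it. For ORA47 the highest value was 0.751, with AT5G15560.

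Genes beside the 4 on their chromosomes, taken from the order in the RefSeq gene table of TAIR10.1, showed no common direction. Of 24 genes, 3 on each side of each member, 12 were measured and above the floor, and 9 of these were called in neither genotype. The other 3 were called in both. Of all probe sets 8.61% were called in the mutant and 10.1% in WT, each genotype taken separately, and the share called in both is not given here. AT5G61570, before AT5G61590 and separated from it by PFK4, fell by 0.98 in the mutant (SE 0.17) and by 1.20 in WT (SE 0.17; limma adjusted p = 0.00324 and 0.000733). The gene next further out, AT5G61560, rose by 1.67 ± 0.19 in the mutant and 0.99 ± 0.19 in WT (limma adjusted p = 9.85e-05 and 0.0058). On the other side of AT5G61590 stands ERF104, for which no value is given here. AT1G74940, next after ORA47 and the small gene AT1G74929 that overlaps it, fell by 0.90 in the mutant (SE 0.10) and by 0.84 in WT (SE 0.10; limma adjusted p = 7.06e-05 and 0.000132), beside an ORA47 transcript that did not separate by treatment. None of the measured neighbours of AT2G44940 or AT1G22810 was called.

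**Figure D4:**
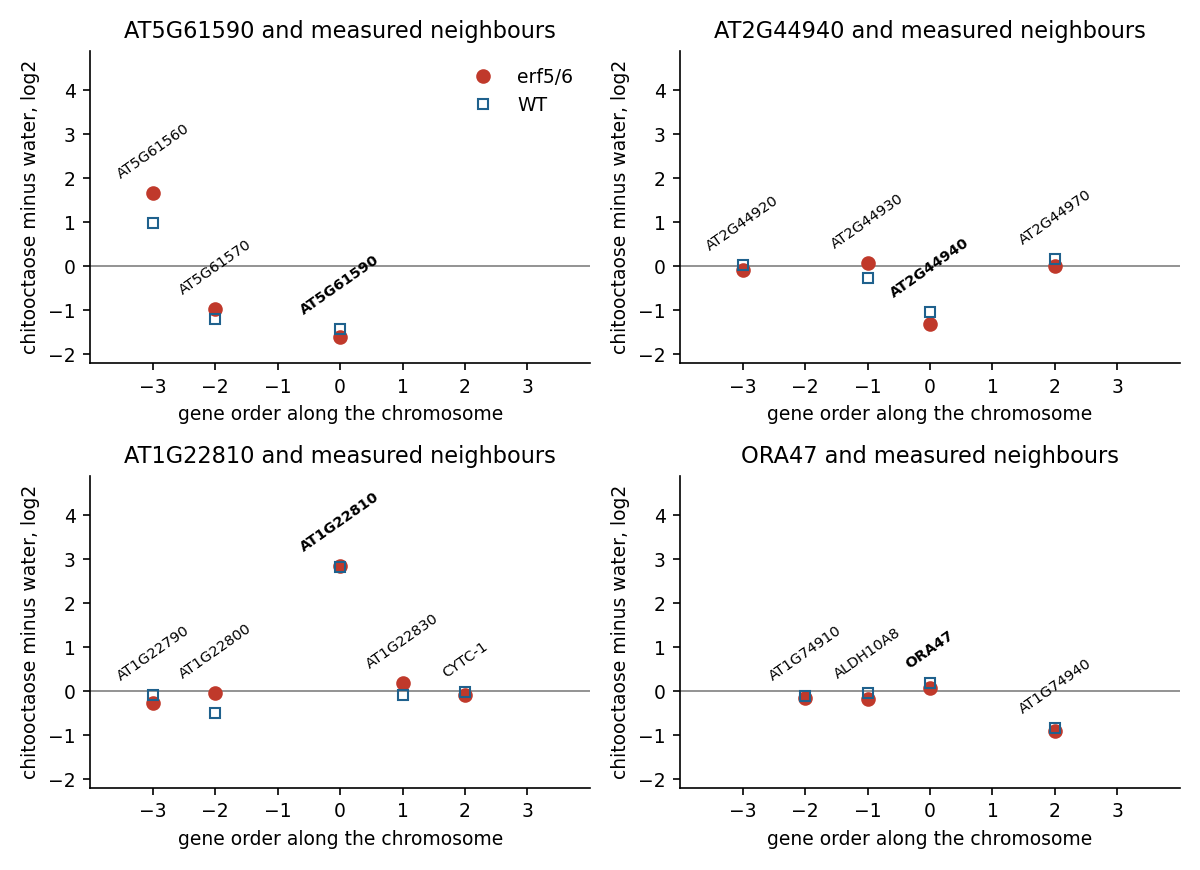
Log2 difference of chitooctaose minus water for each of the 4 genes (at 0, bold) and those of its 3 nearest genes on each side that were measured, in erf5/6 (circles) and WT (open squares), by gene order. AT1G22810 lies far above its measured neighbours, AT5G61590 has a neighbour that fell and one that rose, and ORA47 lies near 0 beside AT1G74940, which fell by 0.90 and 0.84.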

How the data were processed

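The authors deposited 1 linear intensity per probe set and array, for 22746 probe sets on 12 arrays; per the labels' protocols, biotin-labelled antisense RNA was made from total RNA with an oligo(dT) primer. The probe summary, background correction and scaling by the authors are not given in the sources used here. Intensities were quantile normalized, values below 16 set to 16, and log2 taken. The 4066 probe sets at the floor on every array were left out. Group means were fitted over all arrays (limma 3.58.1, R 4.3.3), with Benjamini-Hochberg adjustment over 18680 probe sets, all two-sided. The fit was tested on simulated data with changes placed only in bright probe sets and with no floor. That run does not cover dim genes such as AT2G44940, ORA47 and AT1G22810. A gene was named where its probe set had 1 gene in the platform annotation, updated through the RefSeq table of TAIR10.1. The number of arrays limits the precision.

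The members and lists were chosen with earlier results of these data known. The rule for the family asked for RefSeq descriptions or proteins, which the tables used here do not hold, so family loci were listed from background knowledge after the files were opened, and the rule of 1 neighbour per side was widened to 3. Named were the 4 genes, family members called, measured neighbours, members of the wax and jasmonate lists, and the 5 genes most like each member. Over pairs of groups the correlation of the deviations of same-numbered arrays ran from -0.26 to 0.43. Between water-treated mutant and water-treated WT it was 0.08, 0.17 and 0.43 for arrays 1, 2 and 3. Between chitooctaose-treated mutant and water-treated WT it was -0.09, -0.26 and -0.12. Differently numbered arrays were not compared, so whether the numbers pair arrays was not tested. The alternatives were other normalizations, low-value treatments, filters, moderation, array weights, the arrays compared alone, the replicate number as a block, each array left out, and, chosen after seeing the data, both outlying WT arrays left out.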

Additional observations from a re-analysis of the deposited data

How the results depend on the processing

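No genotype difference of the 4 genes passed under any alternative run. Each response of AT5G61590, AT2G44940 and AT1G22810 kept its direction in every alternative that held the gene. These genes were chosen by that response and their treatments did not overlap, so the direction could hardly turn and its keeping is a description. Of 266 genotype values of the 4 genes 254 were counted as keeping direction and side of the threshold, and 12 turned sign, none of them called. The 254 include 22 values of AT1G22810 in water, where the reported fit gave 0 at the floor, so these could not count as turned. The cause of the turns was not tested. AT5G61590 in water had 0.0029 in the reported fit, -0.056 with the deposited intensities, -0.0022 with median centring, -0.10 with array weights and -0.056 without both outlying WT arrays; with single arrays left out it ran from -0.16 to 0.12. ORA47 in water was 0.0051 without both outlying WT arrays and ran from -0.20 to 0.0051 with single arrays left out. AT1G22810 ran from -0.064 to 0.14 after chitooctaose and from -0.032 to 0.070 on average.

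Counts over all probe sets moved by over 1.5 times for the small genotype lists. In water 6 were called, and 1 with only the arrays compared. After chitooctaose 4 were called, 7 with floor-constant probe sets kept, 7 with array weights and 1 with only the arrays compared. For the average 7 were called, 17 with the offset, 11 each with the filter on dim probe sets, the intensity trend and array weights, and 4 to 12 with single arrays left out, the extremes being without array 3 of water-treated WT and without array 2 of chitooctaose-treated WT. The difference between the responses gave 0 calls, 1 with the offset, 1 with a floor of 32 and 0 to 1 with single arrays left out; without array 2 of water-treated mutant it was 1. The deposited intensities moved its median over all probe sets by 0.10. With the replicate block 1517 probe sets were called for the mutant response against 1608, and 1823 for WT against 1894. It gave 5, 6, 8 and 0 calls for the genotype in water, after chitooctaose, on average and the difference between responses. The block gave no genotype call among the 4 genes, and whether the numbers pair arrays was not tested. A higher floor or offset shrinks the changes of dim transcripts by construction: with a floor of 32 AT1G22810 had 1.85 in the mutant and 1.81 in WT.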
